A study of Mus musculus with 31 samples.

Results

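Notch signalling was followed here through 38 genes of the pathway, measured by 52 spots of a cDNA array in brain, liver, spleen and thymus of Dll1 mutant mice. The genes came from a given list of 46 ligands, receptors, processing enzymes, modifiers, nuclear factors and targets. Dll4, Maml2, Maml3, Heyl, Nrarp, Psenen, Mfng and Itch had no spot by the naming used, and Aes is given under its current symbol, Tle5. The whole table held 20794 spots, of which 12760 carried the name of 1 of 9026 genes.

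The mutants were male, 17 weeks old and 4 in number, and the same 4 gave all 4 organs. The labels call them Dll1 and name neither allele nor zygosity. The paper describes Dll1tm1Gos/+ heterozygotes, in which lacZ is inserted into the gene, but with another number of mice, another age and another series record, so it is not certain that these are the same animals. Every array set the RNA of 1 mutant, labelled in 1 dye, against a pool of RNA of the same organ of wild-type males of 18 weeks, labelled in the other. The pool is 4 animals in the labels' list and 6 in their protocol, and 20 µg of RNA was labelled. Each mouse and organ had 2 arrays with the dyes swapped, except thymus of mouse 2, with 1 array (mutant RNA in Cy5), which made 31 arrays. Levels are not given by ratios, so the tissue of a sample could not be checked against its markers.

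Dll1 is a ligand on the surface of 1 cell that binds a Notch receptor on its neighbour. Binding exposes the receptor to cleavage by Adam10 or Adam17 and then by gamma-secretase, and the released intracellular domain joins Rbpj and a Mastermind protein in the nucleus to switch on targets such as the Hes and Hey repressors. In the lymphoid organs the pathway sets the choice between T and B cell fates and, through Dll1 and Notch2, the marginal zone B cells of the spleen, and in the brain it holds back the differentiation of neural precursors.

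Each value is a log2 ratio, read as mutant over pool. This direction is likely and not stated by any source: on every array the first channel in the labels is the mutant and the second is the pool. If the ratio were pool over mutant, every sign below would turn. The gene of a spot was also inferred, since names matched only when moved by 11 places. At that displacement spots of the same gene correlated at a mean r of 0.038 over 3734 pairs of spots, against 0.0115 at the next best of 41 displacements. Of the 52 spots, 8 stand near the end of the table, where names are uncertain (same-gene spots there correlated at a mean r of -0.0112), and these are marked below.

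The arrays limited what could be seen. The 2 arrays of a mouse, both turned to mutant over pool, correlated at r from -0.194 to 0.131 (median -0.0245) over all spots. Arrays of different mice with the mutant RNA in Cy3 correlated at 0.354 to 0.417 in brain and at 0.101 to 0.322 in spleen. The arrays of spleen mouse 1 stood apart, with 12693 and 15347 values where the median array had 20312, and the array of brain mouse 4 with the mutant RNA in Cy5 had 16152. Values beyond 12 in size were left out.

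The binding motif of Rbpj, TGGGAA or TTCCCA on the other strand, is the point at which the pathway reaches its targets. In RefSeq's promoter windows (250 bases before to 50 after a start, build GRCm38.p6) it was found on either strand in 26.3% of the 38 windows of 31 Notch genes with a spot, and in 25.6% of all 32851 windows. It was found on both strands in 4 of the 38 windows (10.5%), those of Hes5, Hey2, Lfng and Rbpj, against 1.81% of all windows. Hes1, Hey1, Tle5, Mib1, Snw1, Dtx3 and Dtx4 had a spot but no window, and so were not searched. The windows of Hes5, Hey2 and Lfng are shown because they hold it on both strands and each gene has a spot with an unadjusted p under 0.05 described below. Capitals mark the motif, each window runs 5′ to 3′ along its gene, and a match is a description of the letters only.
Hes5 (chr4:154960673-154960972, plus strand): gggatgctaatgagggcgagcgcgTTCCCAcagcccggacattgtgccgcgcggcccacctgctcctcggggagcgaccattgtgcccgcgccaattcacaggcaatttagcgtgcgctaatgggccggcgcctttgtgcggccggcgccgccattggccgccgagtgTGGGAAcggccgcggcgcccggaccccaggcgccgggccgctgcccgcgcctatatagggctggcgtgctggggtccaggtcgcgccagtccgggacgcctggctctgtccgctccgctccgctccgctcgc
Hey2 (chr10:30842734-30843033, minus strand): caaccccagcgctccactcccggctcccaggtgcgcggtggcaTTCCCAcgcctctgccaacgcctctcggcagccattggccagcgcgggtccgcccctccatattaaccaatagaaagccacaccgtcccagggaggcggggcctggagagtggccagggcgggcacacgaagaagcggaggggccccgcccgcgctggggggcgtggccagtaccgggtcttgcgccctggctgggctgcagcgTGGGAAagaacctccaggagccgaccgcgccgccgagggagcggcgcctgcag
Lfng (chr5:140607091-140607390, plus strand): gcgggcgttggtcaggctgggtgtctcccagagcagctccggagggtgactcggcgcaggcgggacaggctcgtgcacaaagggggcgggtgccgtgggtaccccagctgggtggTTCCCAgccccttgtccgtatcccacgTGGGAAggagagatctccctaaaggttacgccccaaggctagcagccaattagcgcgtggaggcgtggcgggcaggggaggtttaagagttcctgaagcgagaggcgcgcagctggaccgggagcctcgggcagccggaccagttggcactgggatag

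In Hes5 the TGGGAA began 82 bases before the start and the TTCCCA 226 bases before it. In Lfng both lay within a short stretch, 108 and 135 bases before the start. In Hey2 they began 3 and 207 bases before it. The windows of Dll1, of the 4 receptors and of Hes6 held no match.

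No spot of a Notch gene passed the test in any organ. The limma test of the mean over mice against 0, with Benjamini-Hochberg adjustment over all spots of the organ, called 0 of 51 spots in brain, 0 of 49 in liver, 0 of 48 in spleen and 0 of 50 in thymus. It called 0% of all spots in each organ too. The smallest adjusted p of a Notch spot was 0.42 in brain, 0.92 in liver, 0.41 in spleen and 0.86 in thymus. The pool counted as 1 control sample, so the spread between wild-type mice has no part in these p-values. Without an adjustment, 19 tests of a Notch spot in an organ had a p under 0.05, and their values in every mouse are given below by role.

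**Figure D1:**
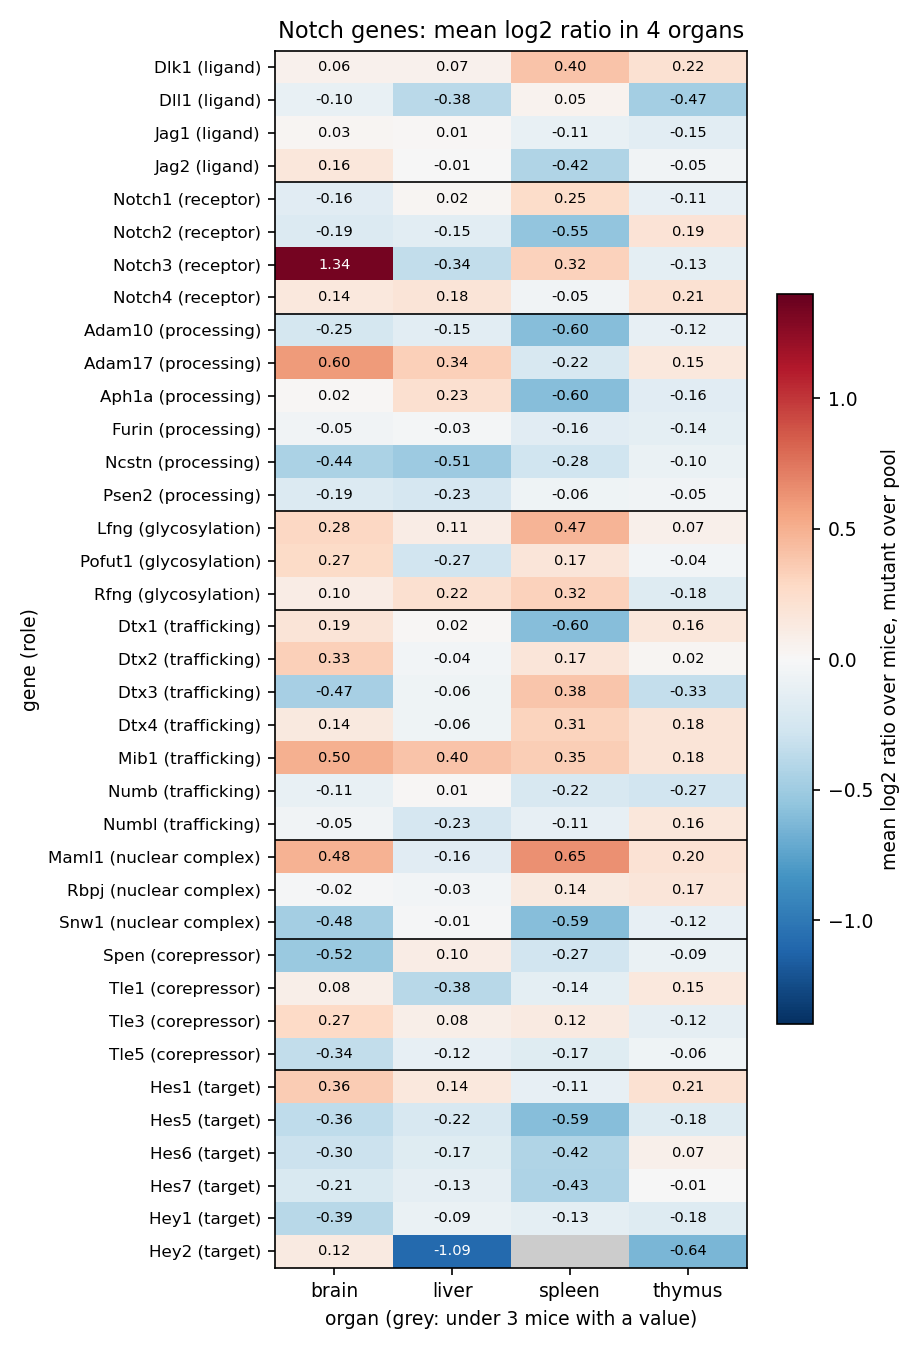
Mean log2 ratio over mice of each Notch gene (rows, grouped by role) in the 4 organs (columns), mutant over pool, with red above 0, blue below 0 and grey where under 3 mice gave a value. Most means lay within 0.50 of 0, and the value farthest from 0 was Notch3 in brain, at 1.34.

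Dll1, the mutated gene, had 2 spots, and they did not move together. It lies on chromosome 17 (15367354 to 15376932, GRCm38.p6), and the sources used here do not say which part of the transcript each spot covers. On spot 16 the ratios in brain were 0.13, 0.54, 0.29 and -0.37 in mice 1 to 4, a mean of 0.15 ± 0.38 (SD, n = 4). In spleen they were 0.64, 0.34, 1.60 and 0.06, a mean of 0.66 ± 0.67 (SD, n = 4). The means of all 4 spleens were above 0, with a limma adjusted p of 0.47, but the 2 arrays of each spleen had opposite signs. They read 2.18 in Cy5 and -0.90 in Cy3 in mouse 1, 2.57 and -1.9 in mouse 2, -0.03 and 3.24 in mouse 3, and -0.64 and 0.77 in mouse 4.

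In thymus the ratios of spot 16 were -1.30, -0.22 and -1.04 in mice 1, 2 and 3, a mean of -0.85 ± 0.56 (SD, n = 3; limma adjusted p = 0.86, unadjusted p = 0.0224). Mouse 2 has a single array, which read 0.58 and lies below 0 only after the correction for the dye. With that array uncorrected, 2 mice were below 0 and 1 above, the mean was -0.59 and the unadjusted p 0.21. The 2 orientations differed here, at -0.05 where the mutant carried Cy5 and -1.56 where it carried Cy3. In liver only mouse 1 had a value on both arrays, 1.40, and no test was made.

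Spot 20300 of Dll1, whose name is uncertain, gave -0.12, -0.52, -0.25 and -0.54 in brain, a mean of -0.35 ± 0.20 (SD, n = 4). In liver mice 1, 2 and 4 gave -0.07, 0.08 and -1.15. In spleen the ratios were 0.21, -1.65, -0.30 and -0.54, and in thymus -0.72, 0.29, -0.44 and 0.51. Only brain had all its mice on 1 side of 0, and the limma adjusted p was 0.443 there and higher in the other organs. In spleen, where the first spot was above 0 in every mouse, this one was below 0 in 3 of 4. Without spleen mouse 1 the mean was -0.83, with an unadjusted p of 0.0243. The 2 orientations differed in spleen, with a mean over all 4 mice of -1.315 in Cy5 and 0.18 in Cy3. The Cy3 arrays of mice 3 and 4 read 0.42 and 0.90.

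**Figure D2:**
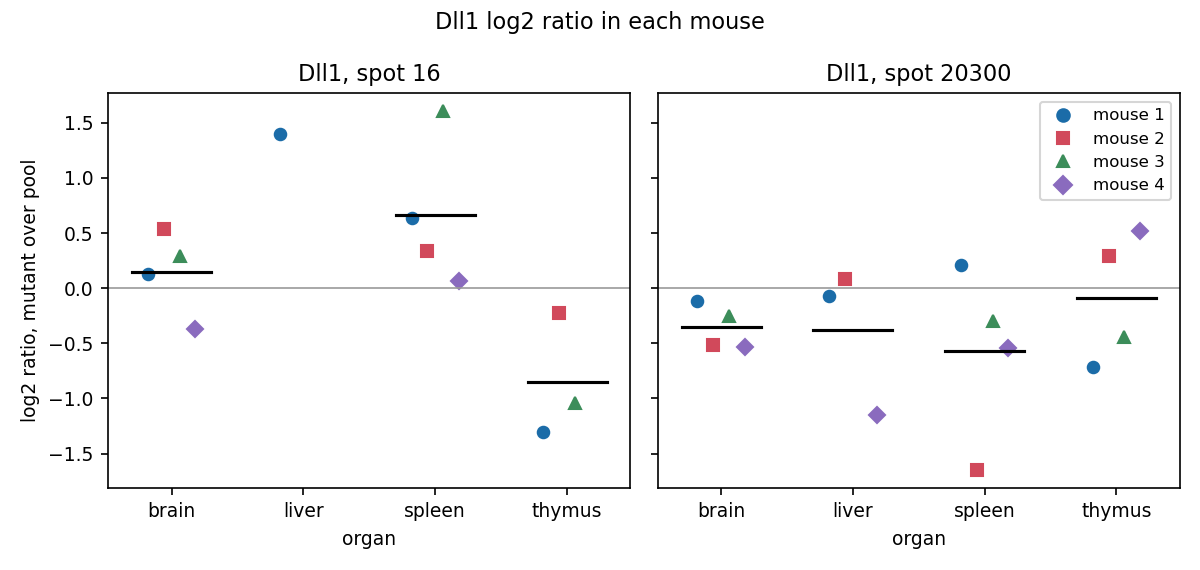
Log2 ratio of Dll1 (vertical axis, mutant over pool) in each mouse and organ, for its 2 spots, with a bar at the mean where at least 3 mice gave a value. On spot 16 thymus lies below 0 in mice 1 and 3, and in mouse 2 only after its single array, at 0.58, was corrected for the dye. On spot 20300 it lies on both sides of 0, and the means in spleen take opposite sides on the 2 spots.

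The other ligands were Jag1 and Jag2, of the Serrate type, Dll3, which acts inside the cell, and Dlk1. No spot of Jag1 or Jag2 had an unadjusted p under 0.05. The means of Jag1 ran from -0.15 in thymus to 0.03 in brain. The 2 spots of Jag2 took opposite sides in each of the 3 organs in which both were tested, and its values in single mice ran from -1.86 to 1.17. Dll3 had a usable value in at most 2 mice of an organ and was not tested, with 0.80 and 2.42 in spleens of mice 1 and 4 and -2.62 (the single corrected array) and -0.98 in thymus of mice 2 and 3. Its 2 spleens were above 0 and its 2 thymuses below. Dlk1, a non-canonical ligand that lacks the Delta-Serrate-Lag2 domain, had ratios of 1.47, 1.13, 0.09 and 0.64 in spleen on spot 20299 (uncertain name), a mean of 0.83 ± 0.60 (SD, n = 4; limma adjusted p = 0.42). All 4 mice were above 0, and without mouse 1 the mean was 0.62. On its other spot spleen gave -0.03 ± 0.70 (SD, n = 3) in mice 2, 3 and 4, below the 0.62 of the same mice. Mouse 1 was left out on that spot, where its only array (Cy3) read 3.34.

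The 4 receptors had 1 spot each. Notch3, known from vascular smooth muscle and pericytes, gave 2.37, 0.47 and 1.19 in brain of mice 1, 2 and 4, a mean of 1.34 ± 0.96 (SD, n = 3; limma adjusted p = 0.42, unadjusted p = 0.017). It was above 0 in each of the 3 mice, but its mean was 2.48 on the arrays with Cy5 on the mutant side and 0.12 on those with Cy3. Mouse 3 had a usable value on its Cy3 array only, and 1 of the 4 mice was below 0 on the Cy3 arrays. In the other organs its means were -0.34 in liver, 0.32 in spleen and -0.13 in thymus.

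Notch2, the receptor through which marginal zone B cells are formed, gave -0.67, -0.48, -0.47 and -0.60 in spleen, a mean of -0.55 ± 0.10 (SD, n = 4; limma adjusted p = 0.41, unadjusted p = 0.013). All 4 spleens were lower than the pool, with little spread between them. The ratio of Notch2 was -0.16 on the Cy5 arrays and -0.95 on the Cy3 arrays (the dye of the mutant), and without mouse 1 the mean was -0.52. Brain, liver and thymus gave Notch2 means of -0.19, -0.15 and 0.19. Notch1, which commits progenitors to the T lineage, had means between -0.16 and 0.25, and -0.11 ± 0.21 (SD, n = 4) in thymus. Notch4, an endothelial receptor, had means between -0.05 and 0.21, with values from -2.47 to 2.78 between mice in brain.

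Of the 6 genes for enzymes that cut the receptor, 4 had means below 0 in brain (49% of all named genes) and in liver (47.2%), 6 in spleen (44.2%) and 5 in thymus (52.1%). These are counts of means, with no test, and in brain the count was 5 with centred arrays. In spleen Aph1a (-0.60) was above 0 in 2 of 3 mice, at 0.33 and 0.16, with mouse 4 at -2.30. The 2 spots of Furin (0.27 and -0.59) and of Psen2 (0.06 and -0.19) took opposite sides there. Adam10, the sheddase of the ligand-bound receptor, gave -0.48, -0.56, -0.66 and -0.70 in spleen, a mean of -0.60 ± 0.10 (SD, n = 4; limma adjusted p = 0.41, unadjusted p = 0.0091). Its spleen ratios were low in all 4 mice and their range did not reach those of thymus (-0.32, 0.15, -0.28 and -0.01). Here too the orientations differed, at -0.16 in Cy5 and -1.04 in Cy3. Adam17, the related sheddase, had means from -0.22 in spleen to 0.60 in brain.

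Ncstn, the gamma-secretase subunit that receives the substrate, has a spot of uncertain name. It gave -0.35, -0.34, -0.49 and -0.57 in brain, a mean of -0.44 ± 0.11 (SD, n = 4; limma adjusted p = 0.42). In liver it gave -0.66, -0.22, -0.91 and -0.26, a mean of -0.51 ± 0.33 (SD, n = 4; limma adjusted p = 0.92). Both organs were below 0 in 4 of 4 mice, while spleen and thymus gave -0.28 and -0.10. The brain value rests on 1 orientation, with 0.13 in Cy5 and -1.0 in Cy3. Aph1a and Psen2, other subunits of gamma-secretase, had no spot with an unadjusted p under 0.05.

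Furin, the convertase that cuts the receptor on its way to the surface, shows how far 2 spots of a gene could part. In brain spot 5966 gave 0.36, 0.78 and 0.68 in mice 1, 2 and 3, a mean of 0.61 ± 0.22 (SD, n = 3). Mouse 4 had a value there on its Cy3 array only (-0.85). Spot 18991 gave -1.40, -0.86, 0.22 and -0.76, a mean of -0.70 ± 0.67 (SD, n = 4). Both had an unadjusted p under 0.05, on opposite sides of 0, and an adjusted p of 0.42. Over the 12 Notch genes with several spots, all tested spots of the gene had means of 1 sign in 19 of 43 cases of a gene and an organ. Signs drawn at random would match about as often, so a value from 1 spot is not backed by the others in general.

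The sugar-modifying enzymes set which ligands a receptor answers to. Lfng, a fringe transferase that favours Delta ligands, gave 0.64, 0.54 and 0.80 in brain of mice 1, 2 and 3 on spot 42, a mean of 0.66 ± 0.13 (SD, n = 3; limma adjusted p = 0.42). In spleen mice 2, 3 and 4 gave 0.86, 0.78 and 0.35, a mean of 0.66 ± 0.27 (SD, n = 3; limma adjusted p = 0.44). The ratios were above 0 in every mouse with a value in both organs, and near 0 in liver (0.09) and thymus (-0.09). Its second spot, 6638, gave -0.09 in brain and 0.28 in spleen. Pofut1, which adds the fucose that fringe extends, and Rfng, another fringe, had means from -0.27 to 0.32.

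The genes of ligand and receptor traffic include the Deltex ubiquitin ligases. Dtx1, itself a Notch target in lymphocytes, gave -0.53, -0.40 and -0.87 in spleen of mice 2, 3 and 4, a mean of -0.60 ± 0.25 (SD, n = 3; limma adjusted p = 0.45). Dtx4 on spot 16854 gave 1.30, 0.83, 0.74 and -0.06, a mean of 0.70 ± 0.56 (SD, n = 4; limma adjusted p = 0.44). Mouse 4 alone was near 0, and without mouse 1 the mean was 0.51 with an unadjusted p of 0.0707. The other spot of Dtx4 gave -0.08 in spleen of mice 2, 3 and 4, and the only array of mouse 1 there (Cy5), left out, read 2.58. Mib1, the ligase that sends ligands into endocytosis, had means above 0 in all 4 organs, from 0.18 in thymus to 0.50 in brain, with a limma adjusted p of 0.42 or more in each. Dtx2 had means from -0.04 to 0.33, and the 2 spots of Dtx3 were below 0 in brain (-0.55 and -0.39) and above it in spleen (0.36 and 0.41). The 0.36 was -0.01 without spleen mouse 1, which gave 1.47. In liver (-0.15 and 0.02) and thymus (0.13 and -0.79) the 2 spots of Dtx3 took opposite sides. Numb and Numbl, inhibitors of the receptor, had means from -0.27 to 0.16.

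In the nucleus Rbpj, the DNA-binding partner of the receptor, kept close to the pool, with means from -0.03 in liver to 0.17 in thymus. Maml1 (uncertain name), the coactivator, had means from -0.16 to 0.65, and in spleen its mice ranged from -0.58 to 2.27. Snw1, which links the complex to splicing and transcription, had means below 0 in all 4 organs, from -0.59 to -0.01. Among the corepressors, Tle1, a Groucho protein that Hes factors recruit, gave -0.27, -0.50, -0.40 and -0.36 in liver, a mean of -0.38 ± 0.10 (SD, n = 4; limma adjusted p = 0.92). All 4 livers were below 0, and thymus gave 0.15. Tle5 (Aes), a short Groucho-related protein, gave -0.67, -0.40, -0.63 and -0.45 in brain on spot 18278, a mean of -0.54 ± 0.13 (SD, n = 4; limma adjusted p = 0.42). Spot 18278 read 0.03 in Cy5 and -1.10 in Cy3 there. The other 2 spots of Tle5 gave -0.44 and -0.04 in brain, the second with 2 mice above 0 and 2 below. Tle3, another Groucho protein, had means from -0.19 to 0.34 over its 2 spots, and Spen, a corepressor that binds Rbpj, from -0.52 to 0.10.

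Of the Hes and Hey genes, listed here as targets, 4 of 6 were below 0 in brain, 5 of 6 in liver, 5 of 5 in spleen and 4 of 6 in thymus. Hes6 was among those below 0 in brain, liver and spleen. Over all named genes the share below 0 was 49% in brain, 47.2% in liver, 44.2% in spleen and 52.1% in thymus. No test goes with these counts either, and in thymus the count was 3 of 6 with centred arrays. Hes5, a target in neural progenitors, gave -1.0, -0.17, -0.66 and -0.54 in spleen, a mean of -0.59 ± 0.35 (SD, n = 4; limma adjusted p = 0.43). All 4 spleens were below 0. Without mouse 1, which was the lowest, the mean was -0.46 and the unadjusted p 0.0543. In brain the ratios of Hes5 were -0.24, -0.39, -0.31 and -0.50, again all below 0, with an adjusted p of 0.43.

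Hey1, a target in blood vessels and elsewhere, gave -0.43, -0.74, -0.63 and -0.76 in brain on spot 35, a mean of -0.64 ± 0.15 (SD, n = 4; limma adjusted p = 0.42, unadjusted p = 0.010). In spleen it gave -0.86, -0.89, -0.31 and -0.53, a mean of -0.65 ± 0.28 (SD, n = 4; limma adjusted p = 0.41, unadjusted p = 0.011). Both organs were below 0 in every mouse, with -0.68 in Cy5 and -0.61 in Cy3 in spleen, but -0.22 in Cy5 and -1.06 in Cy3 in brain. Its 2 other spots, both of uncertain name, gave -0.14 and -0.39 in brain and 0.01 and 0.24 in spleen. The lower ratio of Hey1 in spleen was thus carried by 1 spot of 3.

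Hey2 had the smallest unadjusted p of all Notch spots, 0.000649, in liver on spot 20321 (uncertain name). The ratios were -1.09, -1.09 and -1.10 in mice 1, 2 and 3, a mean of -1.09 ± 0.01 (SD, n = 3), and the adjusted p was 0.92. Mouse 4 had a value on its Cy3 array only (-1.11). The mean was -0.68 on the Cy5 arrays of 3 mice and -1.41 on the Cy3 arrays of all 4. The mice agreed more closely than the arrays they were averaged from. On its other spot Hey2 had a value in 2 livers, -0.05 and 0.22. Hes1, the most widely used target, had means between -0.11 and 0.36, and Hes6 and Hes7 gave -0.42 and -0.43 in spleen.

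**Figure D3:**
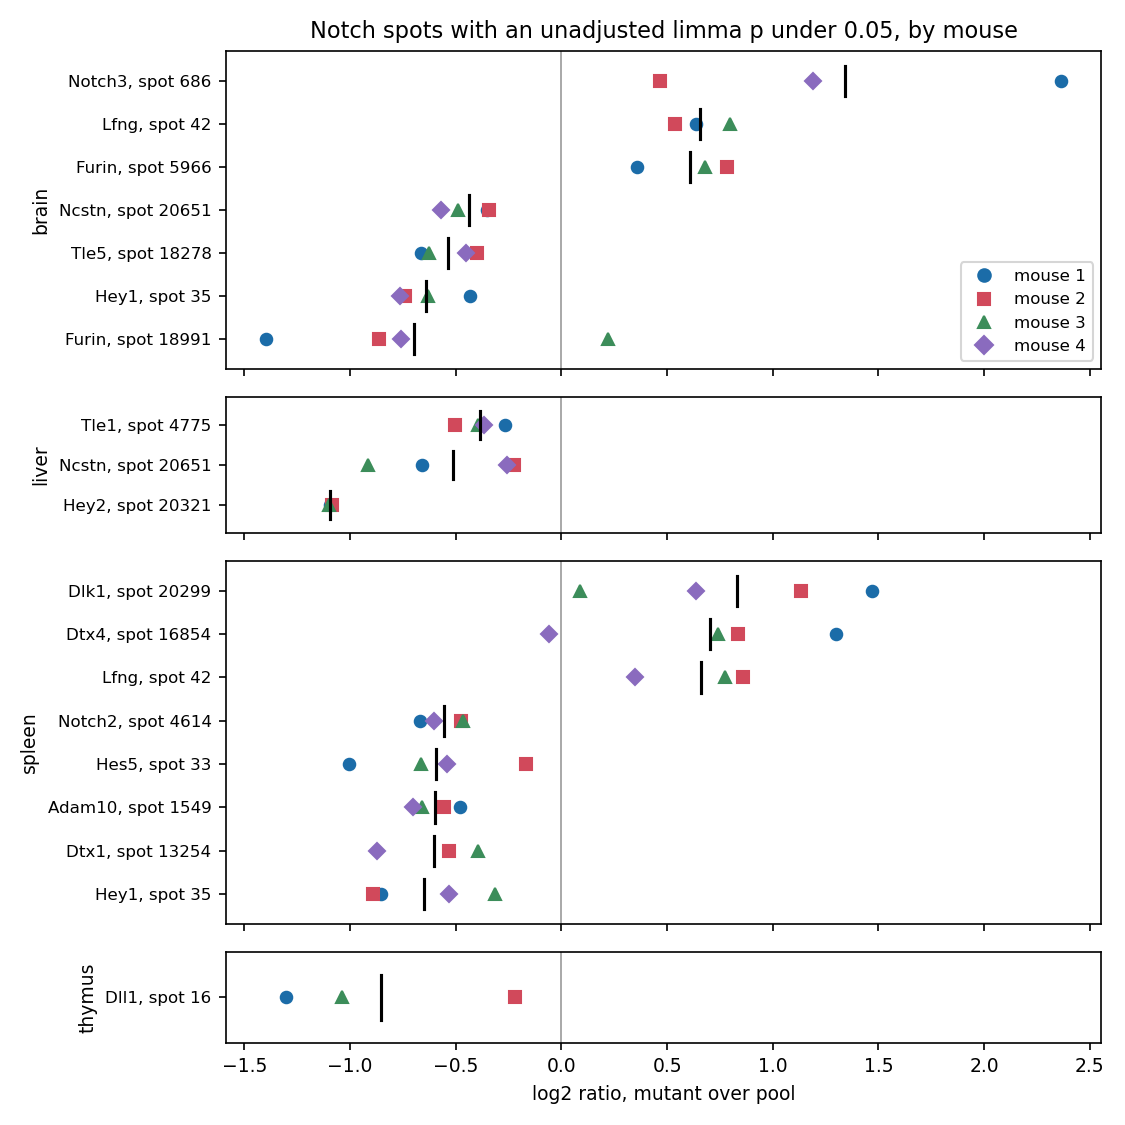
Log2 ratio (horizontal axis, mutant over pool) in each mouse for the 19 cases of a Notch spot in an organ with an unadjusted limma p under 0.05, with a bar at the mean. Furin stands on both sides of 0 in brain, Hey2 in liver gives 3 nearly equal values, and the spleen holds 8 cases, 5 below and 3 above 0.

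Beside these counts stand the shares of all spots on the array past the same threshold. In brain 4 of 51 Notch spots (7.84%) were lower at an unadjusted p under 0.05 (4.44% of all spots) and 3 (5.88%) were higher (7.25%). With mice of a single usable array kept too, 3 Notch spots were lower in brain (3.7% of all spots) and 1 higher (8.61%). In liver 3 of 49 (6.12%) were lower (1.79% of all spots) and 0 higher (2.7%), and in thymus 1 of 50 was lower (2.44%) and 0 higher (0.684%). In spleen 5 of 48 (10.4%) were lower (5.1% of all spots) and 3 higher (5.57%), and without mouse 1 the counts were 7 lower (6.62%) and 2 higher (6.57%). The arrays were not centred, and the array of spleen mouse 1 with Cy5 had a median of 0.71 over all spots. With each array centred on its median, 10 Notch spots were lower in spleen (7.26% of all spots) and 3 higher (3.98%), and in brain 5 were lower (7.36%) and 2 higher (5.54%), with 0 past the adjusted threshold. The 7 lower without spleen mouse 1 included Adam10, Notch2, Dtx1 and Hey1 of the 5 seen with all mice, but not Hes5. Without brain mouse 4, 2 of 48 Notch spots were lower at an unadjusted p under 0.05 (4.22% of all spots), Hey1 and Tle5. Lfng, Furin, Hes1 and Maml1, 4 of 48, were higher (6.43%), and 0 passed the adjusted threshold.

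Spots on 1 side of 0 in every mouse with a value were counted too. In spleen 12 of 48 Notch spots were below 0 in every mouse (25%, beside 13% of all spots) and 6 above (18% of all). In brain 8 of 51 were below (14.8% of all spots) and 6 above (14.6%). In liver 4 of 49 were below (6.2%) and 1 above (8.09%), and in thymus 4 of 50 were below (8.08%) and 4 above (6.45%). No test goes with these counts. The 12 were Adam10, Adam17, Dtx1, Furin, Hes5, Hes6, Hes7, Hey1, Notch2, Numb, Tle1 and Tle5.

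As a group the Notch genes had a median of 0.02 in brain (37 genes), -0.04 in liver (37), -0.11 in spleen (36) and -0.05 in thymus (37). Over all named genes the medians were 0.01 in brain, 0.01 in liver, 0.05 in spleen and -0.01 in thymus. Taken over all spots tested they were 0.04, 0.02, 0.09 and -0.01. With centred arrays the Notch median was -0.05 in brain, on the other side of 0, -0.05 in liver, -0.22 in spleen and -0.05 in thymus. The medians of the 4 spleens were 0.16, -0.15, -0.09 and -0.17, with mouse 1 on the other side of 0 from the rest. Of 36 Notch genes tested in every organ, 9 were below 0 in all 4 (Adam10, Furin, Hes5, Hes7, Hey1, Ncstn, Psen2, Snw1, Tle5) and 3 were above 0 in all 4 (Dlk1, Lfng, Mib1). Those are 25% and 8.33%, beside 7.09% and 9.03% of the 8236 genes tested in every organ, and with centred arrays 10 and 2 genes, beside 9.14% and 6.85% of all. No test goes with these shares. A gene with several spots counts by their mean, and some of these genes had spots on both sides of 0 in an organ. They were Furin, Psen2, Hey1 and Tle5 among those below 0, and Dlk1 and Lfng among those above. Snw1 in brain was above 0 in 2 of 4 mice, with mouse 4 at -2.02, and Hes7 in thymus was at -0.005. The organs came from the same mice, but each had a pool of its own.

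Differences between organs were tested in 1 limma fit of all 4. Of 47 Notch spots, 0 differed between organs after adjustment (0% of all spots) and 3 did at an unadjusted p under 0.05 (10.2% of all), namely Lfng, Notch3 and Tle1, with a smallest adjusted p of 0.42. Between thymus and spleen, both lymphoid, 0 of 47 differed after adjustment (0% of all) and 7 did without it (10.6% of all). Adam10, Dtx1 and Notch2 were higher in thymus than in spleen, by 0.48, 0.76 and 0.74 on the log2 scale. Dlk1 (spot 20299, uncertain name), Dtx3, Dtx4 and Lfng were lower there, with differences of -1.18, -1.20, -0.87 and -0.75. The smallest adjusted p among the 7 was 0.34, for Dtx3. On the other spots of Dlk1, Dtx3, Dtx4 and Lfng the differences were 0.81, -0.22, 0.61 and -0.05, so Dlk1 and Dtx4 turned sign. Spleen mouse 1 was left out on those spots of Dlk1 and Dtx4, where its only array read 3.34 and 2.58. Thymus mouse 2, with its single corrected array, gave -1.70 for Dlk1 and -2.16 for Dtx3 on the spots that differed.

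Many Notch spots took different values in the 2 dye orientations. Between the arrays of a mouse with the mutant RNA in Cy5 and in Cy3, 15 of 51 Notch spots differed in brain at an unadjusted p under 0.05 (20.4% of all spots), 7 of 49 in liver (14.9%), 7 of 48 in spleen (10.3%) and 5 of 48 in thymus (6.74%). After adjustment 0 did in any organ (0% of all spots). The median size of the difference was 0.85 in brain, 0.46 in liver, 0.53 in spleen and 0.21 in thymus. With the mutant RNA in Cy3 alone, 5 of 51 Notch spots in brain passed the adjusted threshold, beside 6.97% of all spots. Hes5 (-0.97), Hey2 (-1.44), Ncstn (-1.0) and Tle5 (-1.10) were lower and Tle3 (0.91) higher. On the Cy5 arrays of brain all 5 had the opposite sign, at 0.25 for Hes5, 1.59 for Hey2, 0.13 for Ncstn, 0.03 for Tle5 and -0.24 for Tle3.

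**Figure D4:**
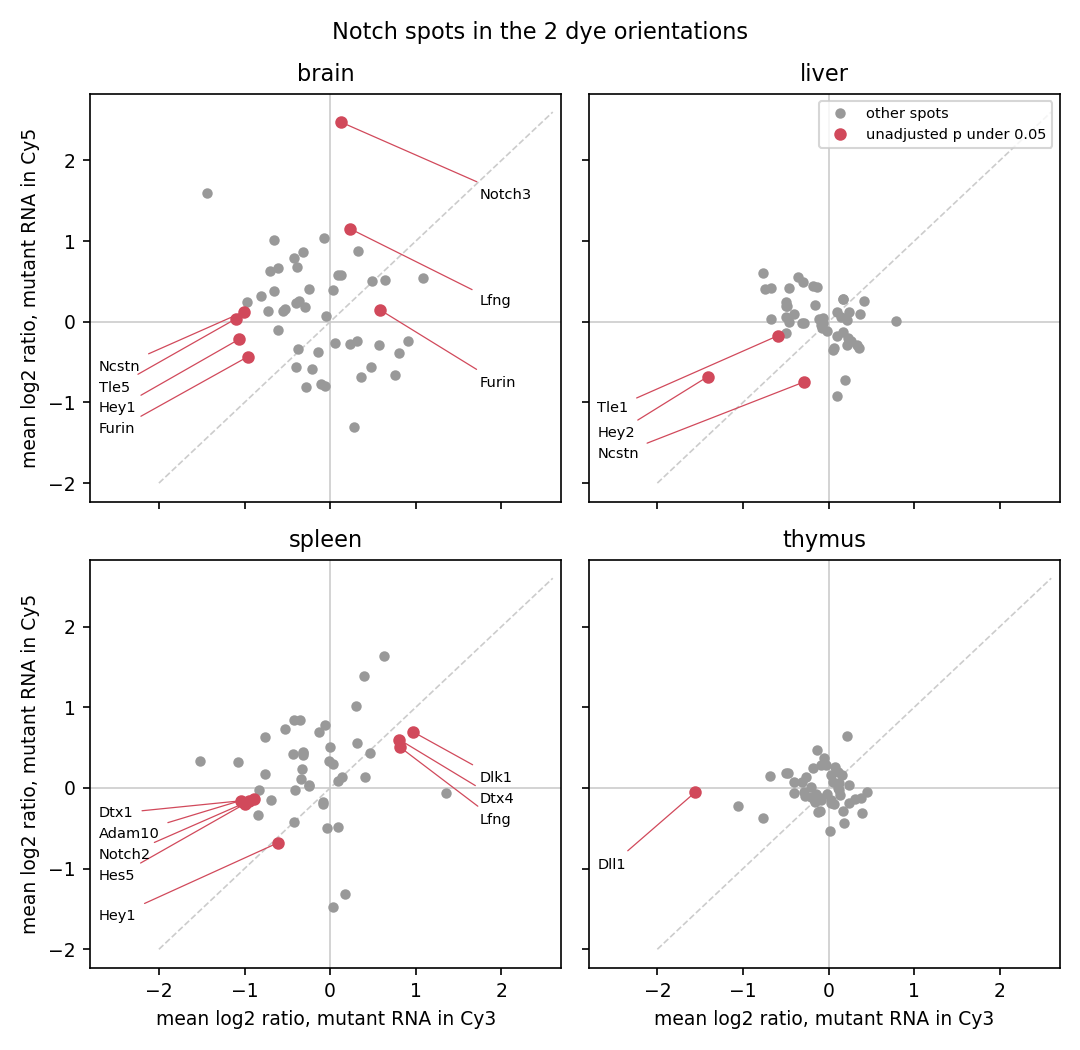
Mean log2 ratio of each tested Notch spot over the arrays with the mutant RNA in Cy5 (vertical axis) and in Cy3 (horizontal axis), with spots of an unadjusted p under 0.05 in red. The 2 means had opposite signs for 31 of 51 spots in brain, 29 of 49 in liver, 23 of 48 in spleen and 25 of 50 in thymus, and Adam10, Notch2, Hes5 and Dtx1 in spleen lie close together, near 0 in Cy5 and near -1 in Cy3.

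Other genes of the pathway came from a list of 72, of which 41 were measured in brain, spleen and thymus and 40 in liver. None passed the adjusted test. At an unadjusted p under 0.05, 2 of 66 spots were lower and 4 higher in brain (4.44% and 7.25% of all spots), 1 and 2 of 63 in liver (1.79% and 2.7%), 2 and 6 of 64 in spleen (5.1% and 5.57%), and 3 and 1 of 67 in thymus (2.44% and 0.684%). The genes named next are described by their values only. In brain Neurl1a, a ligase for ligands, gave 0.63 ± 0.21 (SD, n = 4), Cir1, which binds Rbpj with corepressors, 0.69 ± 0.43 (SD, n = 4), and Cntn1, a neuronal ligand of Notch, -0.49 ± 0.29 (SD, n = 4). In spleen Rbpjl, a relative of Rbpj known from exocrine pancreas, gave 0.83 ± 0.30 (SD, n = 3), Sox9 0.95 ± 0.54 (SD, n = 3), and Tle4 (uncertain name) -0.58 ± 0.41 (SD, n = 4). In liver Ctbp1, a corepressor, gave 0.75 ± 0.28 (SD, n = 3). In thymus Fbxw7, the ligase that marks the intracellular domain for destruction, gave 0.80 ± 0.45 (SD, n = 3) and Id3 -0.39 ± 0.25 (SD, n = 4). The others named by the same rule were Pofut2 (0.85) and Hdac2 (-0.57) in brain, Nedd4l (0.61) and Atxn1 (-1.11, uncertain name) in liver, Ctbp2 (0.94) and Atxn1 (-0.94) in spleen, and Ctbp2 (-1.05) and Hes2 (-1.18) in thymus. Ctbp2, a corepressor, was thus above 0 in spleen and below 0 in thymus, and the difference was not tested here. The medians over these genes were 0.03 in brain, 0.07 in liver, 0.10 in spleen and 0.03 in thymus.

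Markers of cell types were counted in the same way, and none passed the adjusted test in any organ. Of 7 B cell markers 3 were measured in spleen, all below 0 with a median of -0.86. There 4 of their 5 spots were lower at an unadjusted p under 0.05 (5.1% of all spots). Their mean over spots was between -1.23 and -0.68 in the 4 spleens. In spleen 1 of 4 macrophage markers was measured, at -1.15 over 2 spots. Of 9 markers of T cells and thymocytes 6 were measured there, with a median of 0.06 and 2 below 0. Of 6 erythroid markers 2 were measured, on 7 spots, so several spots belong to the same gene. Of the 7 spots, 4 were lower in spleen (5.1% of all spots) and 5 in brain (4.44%) at an unadjusted p under 0.05. In brain 1 of the 2 genes was below 0, and in spleen mouse 3 averaged 0.01 over the spots. Both exocrine pancreas markers measured were below 0 in spleen (median -0.50), while mouse 1 gave 1.22. Several lists lay above 0 in brain. Medians there were 1.09 for thymic epithelium, 0.61 for exocrine pancreas, 0.51 for the macrophage marker and 0.49 for B cells. At an unadjusted p under 0.05, 2 of 3, 2 of 2, 1 of 2 and 1 of 3 of their spots were higher (7.25% of all spots). In thymus the T cell markers had a median of -0.16. Their part in the values of Notch2, Adam10, Hes5 and Hey1 was not tested, and in RNA of whole organs fewer cells of a type cannot be told apart from less RNA per cell.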

How the data were processed

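The authors deposited, for each array, a value table of log2 ratios per spot; scale and direction are not stated in it. The study describes a GenePix scanner with GenePix Pro for the images and the TM4 suite for statistics, for arrays of another series record, and the normalization is not stated. Values beyond 12 in size were left out, since each array held some, positive on the arrays with the mutant RNA in Cy5 and negative on the others. Each spot took the gene of the probe 11 numbers earlier. The 2 arrays of a mouse and organ were averaged where both gave a value. This cancels a dye effect only if it is equal and opposite in the 2 orientations, and what is particular to 1 orientation stays in the mean. In brain, arrays of different mice correlated at a median r of 0.386 with the mutant RNA in Cy3 and 0.048 in Cy5. The lone thymus array of mouse 2 was corrected by the dye effect (0.5 times the Cy5 minus Cy3 difference, averaged) of the other 3 mice. Per organ, spots with a value in at least 3 of 4 mice were tested against 0 with limma 3.58.1 (R 4.3.3), Benjamini-Hochberg adjusted over all spots, at a threshold of 0.05, after a test of the code on simulated data. Organs were compared in 1 limma fit. The ratios carry no depth or signal, so the number of arrays limits the precision. The p-values measure the spread between these 4 mice.

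Organs of the same mouse share an animal by the mouse identity in the labels. Over all spots, deviations from the organ mean correlated at a median r of -0.0142 over 24 pairs of organs of the same mouse and 0.0097 over 72 pairs of different mice.

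All Notch genes were accounted for. Values in every mouse were given for Dll1 and for each spot with an unadjusted p under 0.05 in an organ, up to 6 in each direction. Of the other pathway genes up to 3 such spots in each direction and organ were named, with their means. The genes, lists and tests were chosen with earlier results of these data known. Promoter sequences came from RefSeq (GRCm38.p6). Alternatives covered centring, scaling, the direction of the ratio, each dye alone, the naming of spots, the filters, the test, the mouse as a block and leaving out each mouse.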

Additional observations from a re-analysis of the deposited data

Results flagged for a closer look

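In 10 of 157 groups of 4 mice (a Notch spot in an organ) 1 mouse lay far from the other 3 by Dixon's test, where chance flags about 1 in 20 groups. In thymus, mouse 2, whose value rests on a single corrected array, stood apart for Dlk1 on both spots, at 2.92 on spot 2633 and -1.70 on spot 20299 (uncertain name), and for Dtx4 on spot 7168, at 2.65. In brain, mouse 4 stood apart for Jag1 (-1.14), Mib1 (1.22) and Spen (-2.46), and one of its arrays had 22.3% of its values missing. Mouse 1 stood apart in brain for Hes7 (-0.73) and in liver for Dtx3 on spot 18561 (-0.53). In spleen, mouse 1, whose arrays had 26.2% and 39.0% of their values missing, stood apart for Tle1 (-0.34) and for Tle5 on spot 12875 (0.71). The part of the missing values or of the single array in these results was not tested.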

How the results depend on the processing

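Of 174 values of a count or a median under an alternative, 163 kept within their limits and 11 moved. No alternative but 1 gave a Notch spot past the adjusted threshold in any organ: with the mutant RNA in Cy3 alone, limma called 5 in brain. The median over Notch genes in brain was -0.188 in Cy3 alone and 0.169 in Cy5 alone, and in spleen it was 0.125 in Cy5 alone. With the ratio read as Cy5 over Cy3 the medians were 0.251 in brain, 0.154 in spleen and 0.0476 in thymus. The brain median was -0.106 with the gene at the number as listed and -0.0876 with a value in all 4 mice, and leaving out 1 mouse at a time gave -0.150 to 0.0268. The cause was not tested. With the mouse as a replicate block, 0 Notch spots differed between organs and 0 between thymus and spleen, so the pairing changed no call. Of 2320 values of single spots 243 moved, among them 86 of 198 when read as Cy5 over Cy3. Centring of the arrays in the test of dye orientations, the spleen values without mouse 1 for each spot, and the counts of genes on 1 side of 0 with centred arrays were chosen after seeing the data. Empirical Bayes with an intensity trend was not run, since the ratios carry no intensities.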
